A study of Mus musculus with 12 samples.

Results

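Aortas taken 14 days after infusion of porcine pancreatic elastase (PPE) were compared with aortas taken 7 days after infusion of saline, by RNA sequencing. The groups are called PPE week 2 and saline, each has 4 libraries chosen by their labels and numbered as the replicates there, and these 8 libraries belong to a series of 12. The other 4 libraries, PPE week 1, came from aortas taken 7 days after elastase. All mice were male C57BL/6J of 10 weeks, and each infusion was made into the part of the aorta below the kidneys. No saline group of day 14 was used here, so that elastase and the time since surgery cannot be told apart. The labels give 4 animals and 4 libraries in each group. In the main fit, the spread between libraries of a group was estimated over all 12 libraries, so that PPE week 1 enters the p-values of genes.

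Elastic fibres give the aorta its recoil, and elastase digests them, after which the wall dilates, takes up leukocytes and rebuilds its matrix. Smooth muscle cells of the media and fibroblasts of the adventitia make that matrix, and the proteins they secrete are translated on ribosomes, folded by chaperones in the endoplasmic reticulum and laid down as fibrils or as basement membrane around each muscle cell. Sympathetic nerves run in the adventitia, and the cell bodies of these neurons, which hold most of their mRNA, lie in ganglia beside the aorta.

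The tissue label was checked against smooth muscle and matrix genes. Acta2, smooth muscle actin, had 3156 to 6998 CPM at PPE week 2, where CPM are counts relative to the total of a library, scaled by TMM (trimmed mean of M-values), and Eln, elastin, had 4088 to 15214 CPM. The total count was 8343313 to 12269131 in the 8 libraries (two-sided exact permutation p = 0.943 between the groups). A precursor of ribosomal RNA, NR_046233, took 36.2 to 49.9% of the counts in saline and 19.5 to 22.1% at PPE week 2, with no overlap. The difference of the means was -20.9 percentage points (two-sided exact permutation p = 0.0286, the smallest that 4 against 4 allows). The groups also differed by the base composition of transcripts. In each library, log2 CPM moved by -0.24 to -0.02 per 10 percentage points of GC content in saline and by 0.12 to 0.19 at PPE week 2, relative to the mean of the 12 libraries (exact p = 0.0286). Neither measure of library makeup can be told apart from the groups, and their part in the results below was not tested beyond the values given beside them. The libraries of PPE week 2 were the least alike, with a median SD of log2 CPM over 4 libraries of 0.59, against 0.50 in saline and 0.35 at PPE week 1.

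Of 12756 tested RefSeq features, 166 were higher and 172 lower at PPE week 2 than in saline, which is 1.3% and 1.35%, or 2.65% in all (edgeR's quasi-likelihood test, Benjamini-Hochberg adjusted p under 0.05 over all features, the rule for every call here). At an unadjusted p under 0.05 the shares were 8.84% and 7.72%. DESeq2 called 2.86% higher and 2.37% lower, limma-voom 0.862% and 1.2%. By at least 2-fold, 90 were higher and 51 lower. The 4 PPE week 2 libraries lay wholly above all saline libraries in 152 of the 166 and wholly below in 165 of the 172, against 4.55% and 4.44% of all tested features. The median log2 fold change of all features was 0.05. Higher features had a median GC content of 57.9% and lower ones of 46.6%, against 50.2% of all tested. With a correction for GC content and length, 21 features were higher and 101 lower (0.165% and 0.792%), and 20 and 79 of these were among the calls above. With scaling by library size only, the median of all features was 0.54, and 1611 were higher and 27 lower. A fit of only the 8 libraries, which leaves PPE week 1 out of the estimate of the spread, called 33 and 41. With a covariate for the share of NR_046233, edgeR called 0 either way, while 423 and 341 had an unadjusted p under 0.05. Without saline library 3 the counts were 67 and 72, the lowest over the 12 leave-outs. Leaving out any other saline library, PPE week 1 library 2, 3 or 4 or PPE week 2 library 2 or 4 also lowered the count of higher features by over 1.5 times, to 74 to 110.

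**Figure D1:**
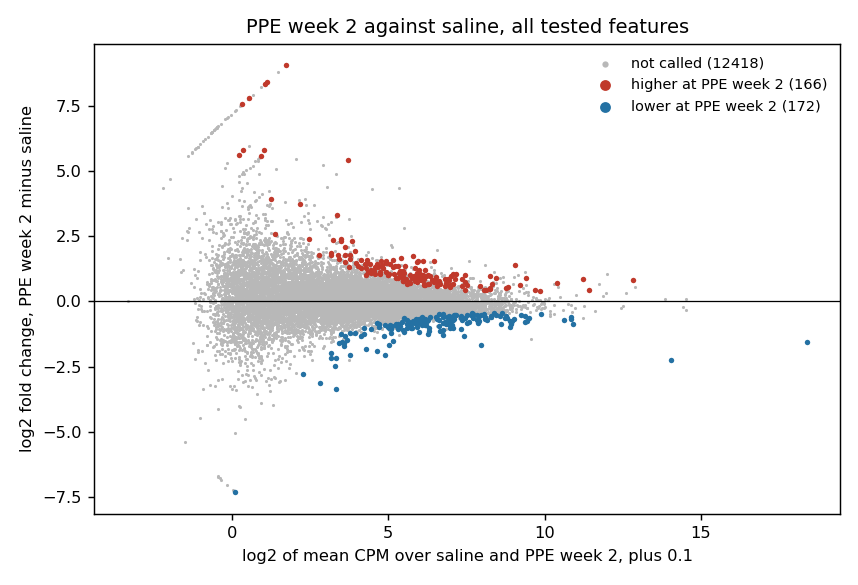
Log2 fold change of each of the 12756 tested features, PPE week 2 minus saline, against the log2 of its mean CPM over both groups. The 166 features called higher (red) and the 172 called lower (blue) lie at most levels of expression, and the slanting line at the upper left holds features with no count in saline.

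**Figure D2:**
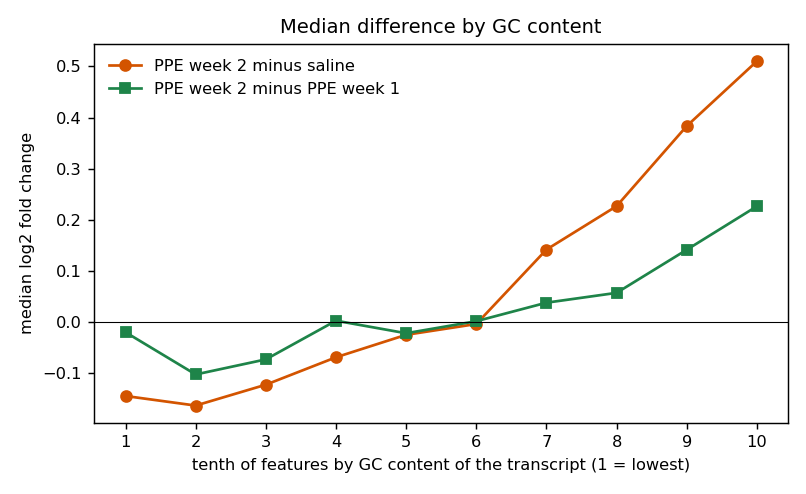
Median log2 fold change of the tested features in 10 bins of equal size by the GC content of their transcripts, for PPE week 2 minus saline (circles) and minus PPE week 1 (squares). Against saline the median was -0.14 in the bin of lowest GC content and 0.51 in that of highest.

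Cytosolic ribosomal proteins were the list with the most falls. Of 36 tested ribosomal protein genes of the cytosol, 10 were lower and 1 higher, and their median log2 fold change was -0.59. The summed CPM of the 36 was 2128 to 2744 in saline and 1552 to 1992 at PPE week 2. How reads that match more than 1 place were counted is not given, so the levels of these genes are uncertain. The 10 were Rps6, Rps4x, Rpl4, Rpl5, Rpl6, Rpl7, Rps3a1, Rps16, Rplp1 and Rps2. Rps6, a protein of the small ribosomal subunit, had 167, 171, 195 and 179 CPM in saline libraries 1 to 4 and 80.0, 92.6, 82.1 and 99.7 CPM at PPE week 2. Every PPE week 2 library was thus below every saline library, and the fall was 2.01-fold (log2 fold change -1.01 ± 0.13 SE, adjusted p = 0.00341; NM_009096, chromosome 4, 86854099 to 86857367, mm10). Rps4x, the X-linked protein of the same subunit, had 75.4 to 102 CPM in saline and 34.2 to 42.2 CPM at PPE week 2 (-1.17 ± 0.16, adjusted p = 0.00360). Rpl4, of the large subunit, had 254 to 337 against 149 to 183 CPM (-0.84 ± 0.12, adjusted p = 0.00360). In a bulk sample, fewer cells of a type and less RNA per cell cannot be told apart.

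Rpl8 went the other way, with 102, 100, 99.6 and 96.0 CPM in saline and 146, 202, 171 and 209 CPM at PPE week 2 (0.87 ± 0.13, adjusted p = 0.00408). Rpl29, another large-subunit gene that was not on the list, rose from 63.6 ± 9.65 to 121 ± 14.7 CPM (mean ± SD, n = 4; 0.93 ± 0.14, adjusted p = 0.00407). Rps13, a small-subunit gene that was also not on the list, was called lower (adjusted p = 0.00734). It had 12.2 to 16.4 CPM in saline and 1.40 to 5.47 CPM at PPE week 2. The ribosomal proteins therefore did not move as 1 block. With the GC and length correction 8 of the 36 were lower, and Rpl8 lost its call (edgeR adjusted p = 0.0696). With scaling by library size only their median was -0.08, against 0.54 for all features. The calls of Rps6, Rps4x, Rpl4, Rpl8 and Rpl29 remained without each of the 12 libraries in turn. Against PPE week 1, a comparison that called 2.82% of features lower and 3.77% higher, 14 of the 36 were lower, with a median of -0.71.

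Of the translation factors 4 of 26 were lower and 0 higher (edgeR; 1 higher at an unadjusted p under 0.05, and 0 with DESeq2 and limma-voom), with a median of -0.33. Eef1a1, which carries aminoacyl-tRNA to the ribosome, had 1688, 2033, 2185 and 1886 CPM in saline and 1067, 1343, 1103 and 1243 CPM at PPE week 2 (-0.71 ± 0.10, adjusted p = 0.00360; NM_010106, chromosome 9, 78478453 to 78481724). Eif3a, the largest subunit of the initiation factor that binds the small ribosomal subunit, had 616 to 667 against 375 to 429 CPM (-0.66 ± 0.10, adjusted p = 0.00407). Both remained called without each library and with the GC and length correction, and neither with scaling by library size only. The calls of the other 2, Eif5b and Eef1g, did not hold in every leave-out. Leaving out saline library 1, 2 or 4 or PPE week 2 library 2 ended that of Eif5b (adjusted p up to 0.0674), and leaving out any library except PPE week 2 library 2 ended that of Eef1g (up to 0.121). The calls of Eif5b and Eef1g also ended when the spread was estimated without PPE week 1, and those of Eef1a1 and Eif3a did not.

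Several chaperones of the cytosol fell. Of 27 tested heat shock and chaperone genes 6 were lower and 0 higher (edgeR; 0 higher also at an unadjusted p under 0.05, with DESeq2 and with limma-voom), and their median was -0.40. They were Hsp90aa1, Hsp90ab1, Hspa8, Hsph1, Hspa4 and Chordc1. Hspa8, the constitutive HSP70 of the cytosol, had 482, 697, 855 and 518 CPM in saline and 328, 359, 291 and 308 CPM at PPE week 2, a 1.99-fold fall with no overlap (-0.99 ± 0.16, adjusted p = 0.00420; NM_031165, chromosome 9, 40801276 to 40805202). Hsp90aa1, the inducible HSP90, had 195 to 230 against 80.8 to 138 CPM (-1.05 ± 0.15, adjusted p = 0.00360). Hsp90ab1, the constitutive HSP90, had 753 to 949 against 444 to 594 CPM (-0.74 ± 0.12, adjusted p = 0.00420). Hsph1, which exchanges the nucleotide of HSP70, was 2.18-fold lower (-1.12 ± 0.22, adjusted p = 0.0128), and 0.0547 without saline library 3. With the GC and length correction these 4 remained called. Hsph1 lost its call when the spread was estimated without PPE week 1, while Hspa8, Hsp90aa1 and Hsp90ab1 kept theirs. With scaling by library size only the list's median was 0.12.

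Of genes for folding and export in the endoplasmic reticulum 8 of 29 fell, 0 rose (edgeR; 0 also at an unadjusted p under 0.05, with DESeq2 and with limma-voom), 26 had a log2 fold change below 0, and the median was -0.48. The 8 were Ssr3, Pdia3, P4hb, Rpn1, Hsp90b1, Dnajc3, Ssr1 and Kdelr3. Several genes of this compartment carry the endoplasmic reticulum stress response element in their promoters, a site known to be bound by NF-Y and ATF6. Its letters, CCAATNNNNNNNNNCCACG on either strand, stood within 250 bases before the start of 5 of the list's 23 genes with a RefSeq promoter (Calr, Creld2, Dnajc3, Hsp90b1 and Pdia6), against 0.113% of 32851 promoters of the same length. Of the 8 genes that fell, Hsp90b1 and Dnajc3 had it, and their promoters are shown for that reason, which was seen after their values. They come from RefSeq's GRCm38.p6 and are written 5′ to 3′ on the gene's strand with the matches in capitals. That of Hsp90b1, the luminal HSP90, is chr10:86705445-86705694 on the minus strand, with matches 212 to 194 and 107 to 89 bases before the start, the second on the opposite strand. That of Dnajc3, a co-chaperone, is chr14:118937682-118937931 on the plus strand, with a match 105 to 87 bases before the start.
Hsp90b1: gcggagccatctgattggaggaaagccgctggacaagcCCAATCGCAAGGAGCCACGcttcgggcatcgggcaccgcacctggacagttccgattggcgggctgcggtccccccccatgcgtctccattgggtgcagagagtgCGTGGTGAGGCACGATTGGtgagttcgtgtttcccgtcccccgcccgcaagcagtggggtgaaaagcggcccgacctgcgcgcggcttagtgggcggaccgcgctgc
Dnajc3: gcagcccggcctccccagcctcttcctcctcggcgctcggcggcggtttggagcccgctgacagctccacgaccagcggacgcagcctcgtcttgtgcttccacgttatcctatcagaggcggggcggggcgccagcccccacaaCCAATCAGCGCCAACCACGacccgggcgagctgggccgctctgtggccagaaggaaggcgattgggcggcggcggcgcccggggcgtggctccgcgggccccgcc
A match describes letters and not binding. Hsp90b1 had 1030, 1127, 1265 and 1019 CPM in saline and 760, 833, 742 and 854 CPM at PPE week 2 (-0.48 ± 0.11, adjusted p = 0.0250). Dnajc3 had 206, 239, 264 and 240 against 145, 196, 165 and 153 CPM (-0.53 ± 0.12, adjusted p = 0.0333). Neither gene's groups overlapped, and neither gene was called when the spread was estimated without PPE week 1. Their calls ended with the GC and length correction (adjusted p = 0.138 and 0.123), that of Hsp90b1 also without saline library 2 or 3 (up to 0.0950), and that of Dnajc3 without saline library 2, 3 or 4, PPE week 1 library 3 or 4 or PPE week 2 library 1 or 4 (up to 0.110).

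The firmer falls in this group were in enzymes and in the translocation machinery. Ssr3, a subunit of the translocon-associated complex, had 262, 267, 314 and 316 CPM in saline and 174, 160, 195 and 181 CPM at PPE week 2 (-0.71 ± 0.11, adjusted p = 0.00420; NM_026155, chromosome 3, 65379657 to 65392553). P4hb, the disulfide isomerase that is also a subunit of collagen prolyl 4-hydroxylase, had 684 to 857 against 489 to 591 CPM (-0.54 ± 0.10, adjusted p = 0.0111). Rpn1, of the oligosaccharyltransferase, was 1.58-fold lower (-0.66 ± 0.13, adjusted p = 0.0132). Pdia3, an isomerase of glycoproteins, was 1.54-fold lower (-0.63 ± 0.11, adjusted p = 0.00830); exons of Catsper2 overlap it on the other strand, and the kit used records no strand. These 4 remained called without each library in turn and with the GC and length correction. With PPE week 1 left out of the estimate of the spread, P4hb and Rpn1 lost their calls, while Ssr3 and Pdia3 kept theirs. All 4 lost their calls when only library size was used for scaling, where the list's median was 0.02. Plod2, a lysyl hydroxylase of collagen, fell from 17.2 ± 4.20 to 5.81 ± 1.86 CPM (-1.56 ± 0.38, adjusted p = 0.0376), a call lost without any of saline libraries 1, 3 and 4, PPE week 1 libraries 2 and 3, or PPE week 2 libraries 2 and 4 (up to 0.114). That call was also lost when the spread was estimated without PPE week 1.

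**Figure D3:**
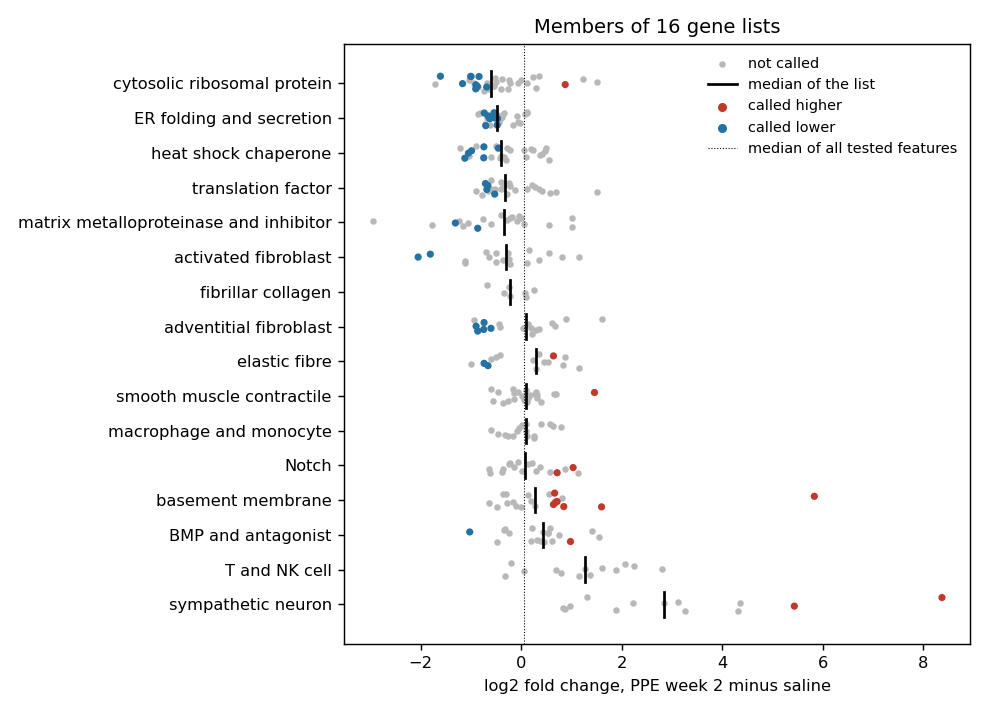
Log2 fold change, PPE week 2 minus saline, of each tested member of 16 gene lists. Red and blue points were called higher and lower, black bars are list medians, and the dotted line is the median of all tested features, 0.05; the ribosomal protein median lies at -0.59 and the sympathetic neuron median at 2.84.

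Among matrix genes, single members of several lists fell. Fbn1, fibrillin of the microfibrils that carry elastin, had 2281, 2328, 2474 and 1954 CPM in saline and 1186, 1454, 1474 and 1595 CPM at PPE week 2, 1.58-fold lower with no overlap (-0.66 ± 0.11, adjusted p = 0.00420; NM_007993, chromosome 2, 125300594 to 125506485). Mfap5, a microfibril protein, was 1.67-fold lower, at 143 to 212 against 259 to 356 CPM (-0.74 ± 0.15, adjusted p = 0.0129, and 0.0562 without saline library 3). Of 15 tested elastic fibre genes these 2 fell and Emilin1 rose, and the list's median was 0.28. Eln itself had 4877, 4588, 8589 and 6688 CPM in saline and 4088, 8377, 15214 and 8258 CPM at PPE week 2, with wide overlap (0.54 ± 0.35, adjusted p = 0.499). Col3a1, a main fibrillar collagen, had 20948 to 28946 against 17141 to 24221 CPM (-0.22 ± 0.13, adjusted p = 0.432). Of 7 fibrillar collagen genes edgeR called 0, with an unadjusted p under 0.05 in 0 rises and 1 fall, and 0 calls by DESeq2 and limma-voom. With the GC and length correction 1 of the 7 was lower, and the list's median moved from -0.22 to -0.39.

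Of 18 adventitial fibroblast genes 5 fell and 0 rose (edgeR; 3 higher at an unadjusted p under 0.05, 1 with DESeq2 and 0 with limma-voom), while their median was 0.09 and 10 lay above 0. The 5 were Dcn, Col14a1, Mfap5, Lum and Dpt. Col14a1, a collagen that sits on fibrils, had 1903, 2529, 2395 and 1988 CPM in saline and 1235, 1658, 1532 and 1378 CPM at PPE week 2 (-0.60 ± 0.12, adjusted p = 0.0123; NM_181277, chromosome 15, 55307644 to 55520803). Dcn, the proteoglycan decorin, had 153 to 211 against 69.5 to 114 CPM (-0.90 ± 0.17, adjusted p = 0.0108), and Lum, the related lumican, 514 to 809 against 318 to 462 CPM (-0.75 ± 0.17, adjusted p = 0.0310). The 3 genes did not overlap between the groups. Col14a1, Lum and Mfap5 lost their calls when the spread was estimated without PPE week 1, while Dcn kept its call. Dcn, Lum and Mfap5 were not called with the GC and length correction (0.0810, 0.0812 and 0.0688), and Lum was not called without saline library 3 or 4 or PPE week 2 library 1, 3 or 4 (up to 0.109).

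Of 18 genes of activated fibroblasts 2 fell and 0 rose (edgeR; 1 higher at an unadjusted p under 0.05, 0 with DESeq2 and limma-voom; median -0.31). Cthrc1, secreted by fibroblasts of injured arteries, had 44.8, 30.1, 52.4 and 63.2 CPM in saline and 10.4, 10.4, 17.9 and 7.41 CPM at PPE week 2, 4.14-fold lower (-2.05 ± 0.30, adjusted p = 0.00360). Postn, periostin, had 19.8 to 43.2 against 5.18 to 14.0 CPM (-1.81 ± 0.38, adjusted p = 0.0184), and up to 0.0744 without saline library 3 or PPE week 2 library 4. Fstl1, a secreted follistatin-like glycoprotein, fell from 2513 ± 242 to 1371 ± 224 CPM (-0.87 ± 0.12, adjusted p = 0.00360; NM_008047, chromosome 16, 37777055 to 37836516). Sfrp4, a secreted inhibitor of Wnt, fell from 383 ± 80.6 to 120 ± 54.2 CPM (-1.68 ± 0.30, adjusted p = 0.0132). Has2, the synthase of hyaluronan, had 22.3, 16.7, 15.3 and 12.3 CPM in saline and 5.22, 4.60, 0.350 and 1.87 CPM at PPE week 2 (-2.47 ± 0.52, adjusted p = 0.0192). Has2 lost its call without saline library 1 or PPE week 2 library 4 (up to 0.0567). Postn and Has2 also lost theirs when the spread was estimated without PPE week 1, while Cthrc1, Fstl1 and Sfrp4 kept theirs.

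Few proteases were called. Mmp3, stromelysin, had 259, 287, 218 and 221 CPM in saline and 87.2, 127, 57.4 and 125 CPM at PPE week 2, and Mmp14, the membrane-type metalloproteinase that activates Mmp2, had 552, 645, 763 and 558 against 264, 379, 299 and 440 CPM. Both were wholly below saline, at log2 fold changes of -1.31 ± 0.22 and -0.87 ± 0.16 (adjusted p = 0.00734 and 0.00913), and these 2 were the called genes among 20 metalloproteinases and inhibitors, whose median was -0.34. Mmp2, gelatinase A, had 585 to 823 against 513 to 580 CPM, also without overlap, and did not pass (-0.28 ± 0.14, adjusted p = 0.321). Adam12, a disintegrin and metalloproteinase, had 171, 177, 143 and 126 CPM in saline and 68.3, 44.0, 43.6 and 93.3 CPM at PPE week 2 (-1.31 ± 0.22, adjusted p = 0.00712). Adam10, the sheddase that cleaves Notch receptors among others, was 1.55-fold lower (-0.63 ± 0.11, adjusted p = 0.00769). Of 18 ADAM and ADAMTS genes 3 fell, Adamts1 being the third, and Adamtsl1 rose, with a list median of -0.06. The call of Adamts1 (adjusted p = 0.0208) was lost without saline library 1, 3 or 4 or PPE week 2 library 2 or 4 (up to 0.0640). Ctsl, the lysosomal cathepsin L, fell 1.54-fold (-0.63 ± 0.11, adjusted p = 0.00769). With the GC and length correction Mmp3, Mmp14, Adam12 and Adamts1 remained called, and Adam10 and Ctsl did not (0.0591 and 0.103). Adam10, Ctsl and Adamts1 lost their calls when the spread was estimated without PPE week 1, while Mmp3, Mmp14 and Adam12 kept theirs.

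Several of these falls were also falls against the earlier elastase group. Against PPE week 1, Mmp14 fell by 1.12 on the log2 scale, Adam12 by 1.85, Cthrc1 by 2.20, Has2 by 3.14 and Fbn1 by 0.67, each called by edgeR (adjusted p = 0.00109, 0.000650, 0.00104, 0.00289 and 0.00172), and both comparisons share the PPE week 2 libraries. Mean levels in the order saline, PPE week 1 and PPE week 2 were 154 ± 24.3, 225 ± 34.6 and 62.3 ± 23.7 CPM for Adam12, and 16.6 ± 4.19, 26.5 ± 5.78 and 3.01 ± 2.30 CPM for Has2. For Postn they were 30.6 ± 10.4, 12.4 ± 4.30 and 8.71 ± 4.24 CPM, and for Hsph1 139 ± 43.6, 39.0 ± 5.60 and 63.8 ± 15.3 CPM.

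**Figure D4:**
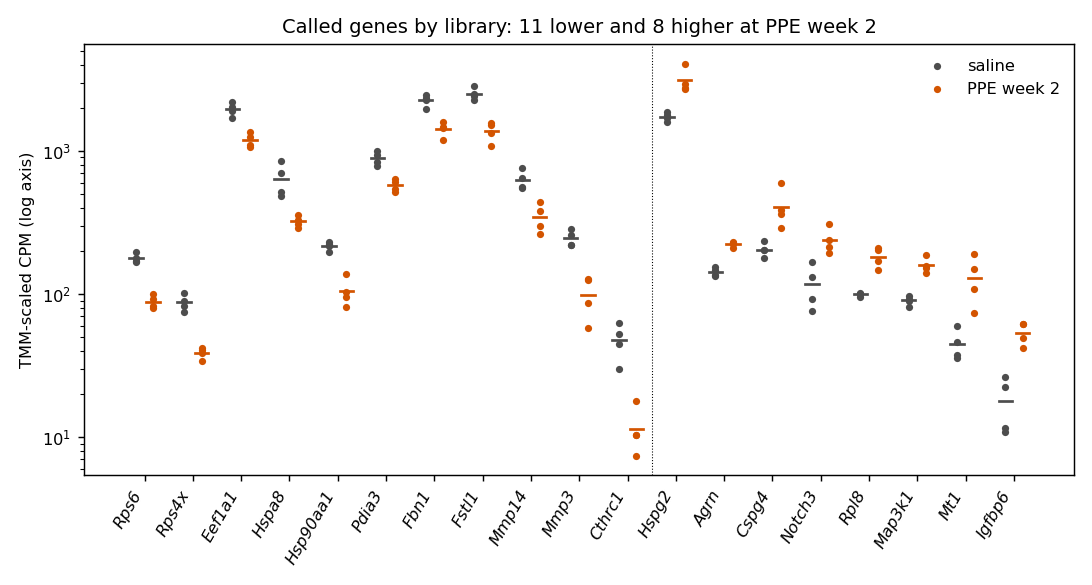
TMM-scaled CPM of 19 called genes in each saline library (grey) and each PPE week 2 library (orange), on a log axis, with bars at the group means. The 11 genes left of the dotted line lie lower in every PPE week 2 library than in any saline library, and the 8 genes right of it lie higher.

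Basement membrane genes were the list with the most rises: 7 of 21 were higher and 0 lower (edgeR; 1 lower at an unadjusted p under 0.05, 0 with DESeq2 and limma-voom), with a median of 0.27 against 0.05 for all features. They were Hspg2, Agrn, Col18a1, Col4a2, Nid2, Lama5 and Lama1. Hspg2, the proteoglycan perlecan, had 1599, 1771, 1869 and 1699 CPM in saline and 2735, 2947, 4066 and 2722 CPM at PPE week 2 (0.85 ± 0.12, adjusted p = 0.00360). Agrn, the proteoglycan agrin, had 155, 147, 133 and 136 against 210, 232, 222 and 226 CPM (0.64 ± 0.11, adjusted p = 0.00734). Col18a1, the source of endostatin, was 3.02-fold higher (1.60 ± 0.30, adjusted p = 0.0108). Col4a2, a chain of the collagen IV network, had 961 to 1143 against 1297 to 2277 CPM (0.71 ± 0.14, adjusted p = 0.0137, and 0.0569 without saline library 3); its exons overlap those of Col4a1 on the other strand. All 4 were wholly above saline, and PPE week 2 library 3 was the highest library for Hspg2, Col18a1 and Col4a2. Of these 4, Col4a2 alone lost its call when the spread was estimated without PPE week 1. With the GC and length correction all 7 calls were lost, and the log2 fold changes of these 4 were 0.25, 0.11, 1.05 and 0.14 (adjusted p = 0.392, 0.775, 0.103 and 0.746).

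Single surface proteins of vascular cells were also higher. Cspg4, the proteoglycan NG2 of mural cells, had 177, 202, 234 and 203 CPM in saline and 288, 386, 592 and 361 CPM at PPE week 2 (1.00 ± 0.19, adjusted p = 0.0116; NM_139001, chromosome 9, 56865104 to 56899870). Notch3, the Notch receptor of arterial muscle, had 75.9, 166, 132 and 92.3 against 212, 238, 309 and 194 CPM (1.03 ± 0.22, adjusted p = 0.0250). Notch1 had 83.0 to 89.8 against 119 to 164 CPM (0.71 ± 0.13, adjusted p = 0.0105). The 2 receptors were the only calls among 18 Notch pathway genes, whose median was 0.08, and Cspg4 and Notch3 the only ones among 9 mural cell genes. Notch3 lost its call without saline library 1, 3 or 4 or PPE week 2 library 2 (up to 0.0816), and all 3 did with the GC and length correction (0.283, 0.270 and 0.531). Notch1 and Notch3 also lost theirs when the spread was estimated without PPE week 1, and Cspg4 did not. Of the contractile list 1 of 26 rose, Tpm1, a tropomyosin, from 11.4, 24.6, 15.2 and 20.8 to 46.7, 37.3, 77.1 and 35.7 CPM (1.45 ± 0.31, adjusted p = 0.0209). That call was lost without saline library 1 or 3 or PPE week 2 library 3 (up to 0.0763), and when the spread was estimated without PPE week 1. These are counts of 1 of 10 accessions of Tpm1. Acta2 had 3220, 3390, 3336 and 4329 against 3575, 3944, 6998 and 3156 CPM, overlapping throughout (0.31 ± 0.25, adjusted p = 0.602).

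Genes of signalling rose and fell singly. Agtr1a, the angiotensin II receptor, had 1.92, 1.49, 1.44 and 2.07 CPM in saline and 12.4, 10.2, 10.5 and 3.45 CPM at PPE week 2 (2.39 ± 0.52, adjusted p = 0.0227), and was not called without any 1 of the 4 saline replicates (up to 0.0744) or by limma-voom. Igfbp6, which binds insulin-like growth factor 2, had 22.5, 26.2, 10.8 and 11.6 against 61.7, 42.2, 61.6 and 48.9 CPM (1.59 ± 0.28, adjusted p = 0.00734). Id3, a target of bone morphogenetic protein (BMP) signalling, had 25.2 to 48.6 against 64.7 to 84.9 CPM (0.98 ± 0.21, adjusted p = 0.0184), and 0.0619 without saline library 4. Bmper, a secreted modulator of BMP, fell from 71.0 ± 12.2 to 34.9 ± 5.90 CPM (-1.03 ± 0.18, adjusted p = 0.00751). Igfbp6 and Id3 were not called with the GC and length correction (0.0563 and 0.118), and Bmper was (-1.06, adjusted p = 0.00922). Agtr1a and Id3 were not called when the spread was estimated without PPE week 1, while Igfbp6 and Bmper were.

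Further genes with the lowest p-values or largest changes belonged to no single group. Map3k1, a kinase of the JNK pathway, rose from 90.3 ± 6.58 to 158 ± 19.6 CPM (0.81 ± 0.12, adjusted p = 0.00407). Pkdcc, a secreted kinase of matrix proteins, rose 2.91-fold (1.54 ± 0.23) and Plekha4, a protein with a pleckstrin homology domain, 2.85-fold (1.51 ± 0.23; adjusted p = 0.00407 each). Mt1, the metal-binding metallothionein, had 35.9 to 59.4 against 73.1 to 190 CPM (1.54 ± 0.27, adjusted p = 0.00769). Ift27, of the transport system of cilia, rose 5.28-fold (2.40 ± 0.38, adjusted p = 0.00420). These 5 remained called without each library and with the correction.

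On the other side, Hmga2, a chromatin protein of dividing mesenchymal cells, had 11.8, 8.94, 27.3 and 25.1 CPM in saline and 0.373, 1.53, 2.98 and 2.09 CPM at PPE week 2, a 10.4-fold fall (log2 fold change -3.38 ± 0.59, adjusted p = 0.00734). Esm1, a proteoglycan of endothelial tip cells, had 7.66 to 18.8 against 0.746 to 2.63 CPM (-3.14 ± 0.62, adjusted p = 0.0123, and 0.0504 without saline library 3). Nkain1, a protein that interacts with the sodium pump, was 4.45-fold lower (-2.16 ± 0.37, adjusted p = 0.00713). Anxa2, a membrane-binding annexin that is a receptor for plasminogen and its activator, fell from 601 ± 48.9 to 360 ± 31.7 CPM (-0.74 ± 0.11, adjusted p = 0.00360). Hypk, a chaperone partner of the N-terminal acetyltransferase at the ribosome, fell 2.40-fold (-1.27 ± 0.19, adjusted p = 0.00360); exons of Serinc4 overlap it on the other strand. Lars2 and Snord15b also fell (-2.26 ± 0.40 and -2.07 ± 0.33, adjusted p = 0.0183 and 0.00420). Lars2, whose product charges mitochondrial leucine tRNA, had 18169.5 to 48090.3 CPM in saline and 4199 to 6814 CPM at PPE week 2. The share of NR_046233 was also lower at PPE week 2, and its quotient to Lars2 was 14.9 to 39.5 over the 8 libraries. When that share entered the model its log2 fold change was 0.013, and its adjusted p was 0.0542 without PPE week 2 library 4.

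Calls in other lists were few and did not hold in every leave-out. Chromatin regulators rose in 4 of 35 cases (Kmt2d, Arid1a, Arid1b and Kdm6b, 1.37-fold to 1.62-fold, adjusted p = 0.0184 to 0.0353), and axon guidance genes in 2 of 26 (Slit3 and Plxnd1) with 1 fall (Epha3). Without at least 1 library each call was lost, with highest adjusted p-values of 0.0619 to 0.0960 for the first 4 and 0.0804 to 0.128 for the others. Each library but PPE week 2 library 3 ended at least 1 of these calls by its absence. None of these 7 was called with the GC and length correction, where Plxnd1 had a log2 fold change of -0.054. The 7 were also not called when the spread was estimated without PPE week 1. Pde5a, which breaks down cGMP in smooth muscle, fell 1.62-fold, while Nr1d1, a repressor of the circadian clock, Col10a1, a collagen of cartilage, and Ctsw, a cathepsin of cytotoxic lymphocytes, rose 1.95-fold, 4.22-fold and 5.01-fold. Each of these 4 calls was lost in several of the leave-outs (highest adjusted p 0.103 to 0.141) and with the GC and length correction, and other genes overlap all 4 on the opposite strand. The 4 calls were also lost when the spread was estimated without PPE week 1.

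Genes of sympathetic neurons had large fold changes that varied between libraries. All 13 tested members of that list had a log2 fold change above 0, with a median of 2.84; 2 were called higher, Th among them, and 5 lay wholly above saline. Of the 13, limma-voom called 0 and DESeq2 called 7 higher, and in edgeR's test 7 had an unadjusted p under 0.05. Th encodes tyrosine hydroxylase, the first enzyme of noradrenaline synthesis, and is known as a target of CREB, which binds the cAMP response element TGACGTCA. Its promoter is shown because Th rose and because it holds that element, on both strands of the same bases, 45 to 38 bases before the start. The 250 bases are chr7:142899996-142900245 on the minus strand of GRCm38.p6, from RefSeq, 5′ to 3′, with the element in capitals.
Th: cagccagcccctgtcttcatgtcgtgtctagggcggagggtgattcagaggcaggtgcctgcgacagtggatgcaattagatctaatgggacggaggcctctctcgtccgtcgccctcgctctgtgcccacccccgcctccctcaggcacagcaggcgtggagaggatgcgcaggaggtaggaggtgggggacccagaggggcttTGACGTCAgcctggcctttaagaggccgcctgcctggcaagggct
The same letters stood in the promoters of 2 of the 9 list genes with an entry, Chgb and Th, and in 1.55% of all promoters of that length. Th had 0.522, 1.64, 0 and 0.259 CPM in saline and 57.9, 24.0, 12.3 and 8.49 CPM at PPE week 2 (log2 fold change 5.43 ± 1.24, adjusted p = 0.0439; NM_009377, chromosome 7, 142892779 to 142899995). Every PPE week 2 library was above every saline library, and they differed among themselves widely.

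Slc10a4, a transporter of vesicles in cholinergic and monoaminergic neurons, had no count in any saline library and 20.5, 1.34, 1.05 and 3.17 CPM at PPE week 2. Against the level of 3 counts over the saline group, 0.0893 CPM, its mean of 6.52 CPM was at least 73.0-fold higher (adjusted p = 0.0454). Slc10a4 was not called when all counts were halved. Dbh, which makes noradrenaline from dopamine, had 1.22, 13.6, 1.05 and 0.129 CPM in saline and 214, 46.5, 18.7 and 31.4 CPM at PPE week 2, and Slc6a2, the noradrenaline transporter, 10.1, 22.1, 5.36 and 6.99 against 203, 52.3, 25.6 and 36.2 CPM. Neither passed the test (adjusted p = 0.187 and 0.173), although no groups overlapped, and both were named after their values were seen. Disp2 and Ptprn, the latter a protein of secretory granules in neuroendocrine cells, rose 10.1-fold and 3.86-fold (adjusted p = 0.0463 and 0.0311). PPE week 2 library 1 was the highest library for Th and for each of these genes.

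The summed CPM of the 13 genes was 38.0 to 99.7 in saline and 966, 264, 101 and 142 at PPE week 2. By this sum the groups narrowly did not overlap, and library 1 stood apart. By the median over the 13 genes of log2 CPM relative to each gene's mean over the 12 libraries, the groups overlapped. That median was -0.68 in PPE week 2 library 3 and -2.13 to -0.28 in saline. Schwann cell genes, which mark the sheath of nerves, had a summed CPM of 63.5 to 145 in saline and 141 to 269 at PPE week 2, with edgeR calling 0 of 10 (unadjusted p under 0.05 in 2 rises and 0 falls; 1 higher with DESeq2, 0 with limma-voom). Whether ganglion or nerve tissue entered some samples was not tested. The calls of Th, Slc10a4, Disp2 and Ptprn were not made by limma-voom or with the GC and length correction, and each was lost without several single libraries. These were saline libraries 1, 3 and 4 for all 4, saline library 2 for all but Disp2, PPE week 1 library 3 for all but Ptprn, PPE week 2 libraries 2 and 4 for all but Ptprn, PPE week 2 library 1 for all but Th, PPE week 1 library 2 for Th, Slc10a4 and Disp2, and PPE week 1 library 4 for Slc10a4, with adjusted p-values of up to 0.0930 to 0.142. The fit of only the 8 libraries called Th, and not Slc10a4, Disp2 or Ptprn. At PPE week 1 Th had 6.86 ± 6.87 CPM, between the other groups.

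EdgeR made no call among 17 macrophage and monocyte genes (unadjusted p under 0.05 in 0 rises and 1 fall, 0 calls with DESeq2 and limma-voom; median 0.09), 13 T and NK cell genes (4 and 0, 0 with both; median 1.27) and 28 chemokine genes (3 and 0, 1 higher with DESeq2, 0 with limma-voom; median 0.35). Cd68, a macrophage marker, had 44.7, 48.9, 39.5 and 38.3 CPM in saline and 44.7, 67.5, 28.5 and 63.5 CPM at PPE week 2 (0.25 ± 0.22, adjusted p = 0.636). Saline libraries were close together and PPE week 2 libraries fell on both sides of them. Single genes outside these lists rose. H2-Q5, a class I histocompatibility gene, rose from 4.81 ± 0.971 to 23.8 ± 14.7 CPM (2.31 ± 0.44, adjusted p = 0.0108). Arhgap45, a GTPase-activating protein of blood cells, rose from 3.04 ± 0.968 to 15.5 ± 10.6 CPM (2.34 ± 0.47, adjusted p = 0.0131). H2-Q5 has near-identical copies, so its counts are uncertain, and neither gene was called by limma-voom or by a fit of only the 8 libraries.

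The 4 PPE week 2 libraries differed from each other in lists of cell type genes. Each gene's log2 CPM was set relative to its mean over the 12 libraries, and the median of these values over a list is called its score. The macrophage score was -1.06, 0.27, -1.13 and 0.30 in PPE week 2 libraries 1 to 4, against -0.38 to -0.31 in the 4 saline libraries. The score of MHC class II and dendritic cell genes was -1.18, 0.80, -1.29 and 0.97, against -0.69 to -0.42. Chemokine genes gave -1.30, 0.55, -1.68 and 0.79, against -0.53 to -0.11. Libraries 2 and 4 were thus above all saline libraries in these 3 lists, and libraries 1 and 3 below all of them. Ccr1, a chemokine receptor of myeloid cells, had 2.42, 16.4, 0 and 34.3 CPM in PPE week 2 libraries 1 to 4 and 9.58 to 17.1 CPM in saline. Ccl7, a chemokine that draws monocytes, had 0 and 2.45 CPM in libraries 1 and 3 and up to 27.0 CPM in libraries 2 and 4, which both lay above the 12.3 to 17.0 CPM of saline.

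**Figure D5:**
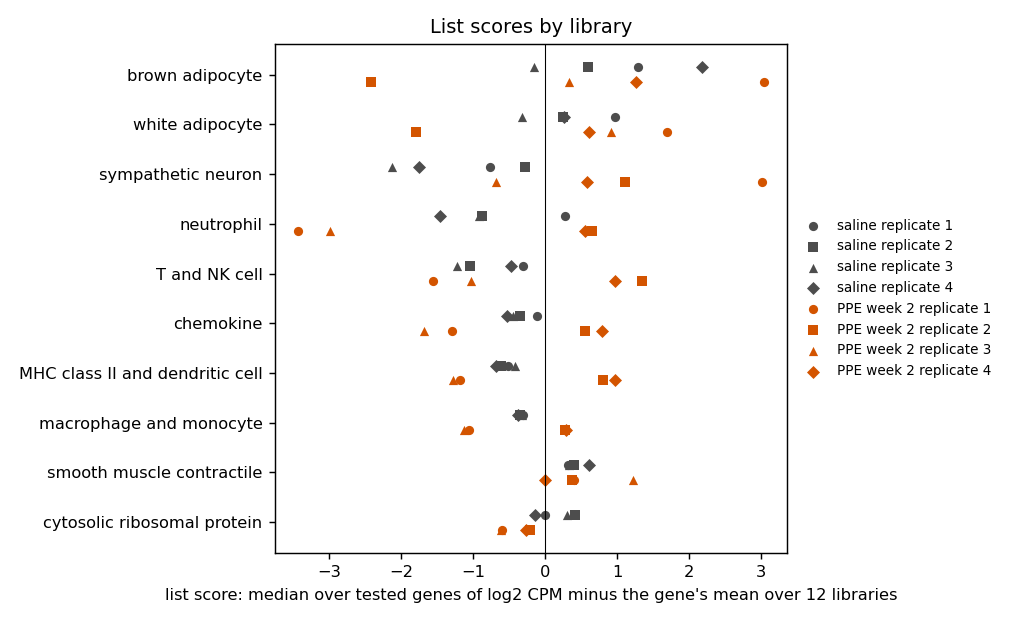
Score of 10 gene lists in each saline library (grey) and PPE week 2 library (orange), with 1 symbol per replicate number. In the MHC class II and macrophage lists PPE week 2 libraries 2 and 4 lie above and libraries 1 and 3 below all saline libraries, and library 2 is the lowest and library 1 the highest in both adipocyte lists.

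Fat genes divided the same libraries in another way. The brown adipocyte score was 3.04, -2.41, 0.33 and 1.26 in PPE week 2 libraries 1 to 4, against -0.15 to 2.19 in saline. Ucp1, the uncoupling protein of brown fat, had 226, 0.192, 5.60 and 28.4 CPM at PPE week 2 and 7.58 to 57.7 CPM in saline. Adipoq, the adipocyte hormone adiponectin, had 401, 56.6, 260 and 159 CPM, against 93.8 to 377 CPM, and the summed CPM of 11 white adipocyte genes was 31741, 1778, 14271 and 12515, against 6716 to 13912. Library 2, low in fat genes, was high in T and NK cell genes (score 1.34), and library 1, high in fat genes, was also high in the sympathetic list (3.01). Library 4 was high in T and NK cell genes too (0.97), with scores of 0.61 in the white and 1.26 in the brown adipocyte list. Library 3 was highest in contractile genes, at a score of 1.22 against 0.00 to 0.40 in the other PPE week 2 libraries and 0.32 to 0.61 in saline. The ribosomal protein score was -0.60, -0.21, -0.61 and -0.27 in PPE week 2 libraries 1 to 4, each below every saline library (-0.14 to 0.41). Libraries 1 and 3 were thus lower than libraries 2 and 4 in this list too, as in the macrophage, MHC class II and chemokine lists. How far cell content bears on the called genes was not tested.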

How the data were processed

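RNA of mouse aortas was extracted with TRIzol and RNeasy Micro columns and made into libraries with the unstranded TruSeq v2 kit, per the labels' protocols, so that reads of genes overlapping on opposite strands cannot be told apart (of the genes named, this touches Anxa2, Col10a1, Col4a2, Ctsl, Ctsw, Eif5b, Eln, Fbn1, Has2, Hmga2, Hsp90b1, Hypk, Kdm6b, Notch1, Notch3, Nr1d1, Pde5a, Pdia3, Plod2, Ptprn and Rpn1). Build mm10, bcl2fastq and DESeq2 stand in the submitters' processing notes. Which aligner and counter were used is not given in the sources used here. Raw counts were deposited by the authors for 34755 RefSeq accessions, of which 34419 were named from a RefSeq gene table. Of counts from 2 to 20, 70.9 to 75.6% were even in saline and 66.0 to 67.7% at PPE week 2, and the cause was not tested. With all counts halved, edgeR called 193 features higher and 182 lower. Gapdh had 2 counts over the 12 libraries, and its level is not used.

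Counts were scaled by TMM and filtered with filterByExpr (minimum count 10), which left 12756 features of 12239 genes. They were fitted with edgeR 4.0.16 in R 4.3.3, robust quasi-likelihood, with 1 mean for each of the 3 groups, and p-values were Benjamini-Hochberg adjusted over all features. The SE is the log2 fold change divided by the square root of F. DESeq2 1.42.0, limma 3.58.1 (voom) and other scalings, filters and leave-outs were alternatives. The procedure was tested on simulated data with planted changes and the same spread in all groups. Those data held no group difference in GC content or ribosomal RNA share, so that test does not bear on either. Named genes were, among called genes with at least 5 CPM in the higher group and no overlap, the 12 largest rises and falls and the 8 of lowest p in each direction, up to 4 called members of each gene list, and a set of aortic marker genes. Some genes that this rule takes are not reported here. The members and lists were chosen with earlier results of these data known.

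The authors' deposited table of week 2 against saline, with log2 fold changes and adjusted p-values, was used only for overlap: of 156 features higher here that it holds, 146 were higher there at its adjusted p under 0.05, and of 171 lower, 145 were lower. The deposited p-values and log2 values are not printed.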

Additional observations from a re-analysis of the deposited data

Results flagged for a closer look

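In 12 of 192 groups of 4 libraries, 1 library lay far from the other 3 (Dixon's test; chance alone gives about 1 in 20 groups). PPE week 2 library 1 was such a library for Dbh (214 CPM), Slc6a2 (203 CPM) and Slc10a4 (20.5 CPM), genes of sympathetic neurons, and for Ucp1 (226 CPM), of brown fat. PPE week 2 library 3 stood apart for Hspg2 (4066 CPM), perlecan. Among saline libraries, library 1 was high for Adipoq (377 CPM) and Ccl7 (17.0 CPM), library 2 for Dbh (13.6 CPM) and Sfrp4 (503 CPM), library 3 for Dcn (211 CPM), and library 4 for Acta2 (4329 CPM) and Nr1d1 (50.1 CPM).

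Of 83 genes with a fold change in the text, 40 differed between both elastase groups, so that their change against the shared saline libraries was not the same at week 2 and week 1 (edgeR's quasi-likelihood test, Benjamini-Hochberg adjusted p = 0.000650 to 0.0491). That comparison called 3.77% of all features higher and 2.82% lower. Most of these genes were named for their values at week 2 against saline, and both comparisons share the week 2 libraries, so the count of 40 is a description. Values in parentheses are log2 fold changes, week 2 minus week 1, with 4 libraries in each group. Of the 40, these of ribosomes, translation and protein folding were lower than at week 1: Rps6 (-0.90), Rps4x (-0.79), Rpl4 (-0.70), Eef1a1 (-0.68), Eef1g (-0.73), Eif3a (-0.46), Hspa8 (-0.56), Hypk (-0.89), P4hb (-0.50), Pdia3 (-0.57), Rpn1 (-0.70) and Ssr3 (-0.65). So were these of fibroblasts, matrix and proteases: Adam10 (-0.57), Adam12 (-1.85), Bmper (-1.23), Cthrc1 (-2.20), Fbn1 (-0.67), Fstl1 (-0.53), Has2 (-3.14), Mfap5 (-0.50), Mmp3 (-0.78) and Mmp14 (-1.12). Further genes below their week 1 level were Anxa2 (-0.69), Cd68 (-1.23), Esm1 (-2.06), Hmga2 (-2.05), Nkain1 (-1.78) and Snord15b (-2.24). These of vascular cells and basement membrane were above it: Acta2 (1.56), Tpm1 (2.66), Cspg4 (1.63), Notch3 (0.95), Hspg2 (0.80), Col18a1 (1.63) and Slit3 (1.24). The remaining genes above it were Id3 (1.07), Igfbp6 (1.05), Pkdcc (1.27), Plekha4 (1.09) and Scaf1 (0.59).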

How the results depend on the processing

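Against saline, 166 features were higher and 172 lower. DESeq2 called 418 and 347, limma-voom 110 and 153, scaling by library size only 1611 and 27, the 8 libraries alone 33 and 41, and the share of NR_046233 as a covariate 0 and 0 (edgeR; 423 and 341 at an unadjusted p under 0.05). The GC and length correction, chosen after seeing the data, called 21 and 101. Scaling by the total without NR_046233 gave 202 and 129, with a median of all features of 0.10. Leaving out 1 library gave 67 to 218 higher and 72 to 198 lower. Against PPE week 1, with 481 higher and 360 lower, DESeq2 called 830 and 663, limma-voom 607 lower, library size only 75 lower, the covariate 54 and 15, and the leave-outs 207 to 642 higher and 112 to 607 lower. The difference in the share of NR_046233 ran from -22.6 to -18.1 percentage points over the leave-outs, each at an exact permutation p of 0.0571, the smallest that 3 against 4 allows.

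The log2 fold change changed sign for Acta2 without PPE week 2 library 3 (-0.0068, the lowest of its leave-outs, which reached 0.44), for Col3a1 (0.28 and 0.23) and Mmp2 (0.23 and 0.17) with library size only and with the covariate, for Hsp90b1 with library size only (0.023), for Lars2 with the covariate (0.013) and for Plxnd1 with the GC and length correction (-0.054); the cause was not tested. Of the 78 named genes called, 45 were called without each of the 12 libraries in turn, 33 were lost without at least 1, 38 were not called by the fit of 8 libraries, 37 with the GC and length correction, 29 with library size only and 12 by limma-voom. None of the 78 was called with the covariate for the share of NR_046233, where edgeR called 0 features.

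Samples with the same replicate number did not deviate together (correlation -0.02 to 0.03, no library closest to its own number), so the numbers are not used as pairs. With the replicate number as a block, 91 features were higher and 113 lower. A fit of only the PPE week 2 and saline libraries holds no week 1 library and was not run for the comparison with week 1.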
